A study of Mus musculus with 4 samples.

Results

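The transglutaminase family was followed gene by gene in mouse monocytes cultured with or without retinoic acid. The 8 genes are Tgm1 to Tgm6, F13a1 and F13b, taken by symbol from the probe sets that carry exactly 1 gene symbol in the platform annotation. Each had 1 probe set, so the family makes up 8 of 22180 named genes and 8 of 39720 probe sets tested. The family was chosen by the measured difference between retinoic acid and control arrays, since Tgm2 was higher and F13a1 lower with retinoic acid. That contrast is therefore given for its members as a description, with no test.

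Bone marrow of 3 mice was pooled, Ly6C-high monocytes were sorted from it, and the cells were kept in GM-CSF (20 ng per ml) with interleukin 4 (20 ng per ml), a cytokine pair that turns monocytes into dendritic cells. All-trans retinoic acid at 100 nM (RA), or its solvent DMSO, was added at the start, and RNA was taken after 24 h. There were 2 arrays with RA and 2 with DMSO, and both treatments shared the mouse source, the sort, the cytokines and the time. The labels give no strain, age or sex, and do not say whether arrays of 1 treatment came from separate cultures, so errors measure the spread between arrays, which may be technical. Since RNA was pooled over all cells in a culture, fewer cells of a type and less RNA per cell cannot be told apart.

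Transglutaminases are calcium-dependent enzymes that join the side chain of a glutamine in a protein to that of a lysine, which makes a bond that resists proteases. Tgm2 encodes the tissue transglutaminase, found in the cytosol, at the cell surface and in the matrix, which also binds GTP and takes part in adhesion to fibronectin and in the uptake of dead cells. It is a long-known retinoic acid induced gene of macrophages. F13a1 encodes the catalytic A subunit of coagulation factor XIII, which cross-links fibrin in clots and is made by monocytes, macrophages and megakaryocytes. Both genes are also used as markers of monocytes and macrophages exposed to interleukin 4. The other enzymes are known mainly from other tissues: Tgm1, Tgm3 and Tgm5 from epidermis and hair, Tgm4 from prostate and Tgm6 from brain. F13b encodes the carrier B subunit of factor XIII, a liver product with no transglutaminase activity.

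The monocyte markers Ly6c2, Ccr2 and Csf1r were bright on all 4 arrays, with intensities of 3264 to 3976, 2584 to 3406 and 3708 to 3732. Cd14, of the same list, had 190 to 251. Some neutrophil markers were bright too, such as Elane (3216 to 3967) and Mpo (2940 to 3331), while Ly6g had 73 to 101. Array medians lay between 80.0 and 81.8, and log2 intensities correlated across probe sets at 0.993 to 0.994 for arrays of the same treatment and at 0.984 to 0.988 for arrays of different treatments. The arrays carry no detection calls. A dim level of 6.35 (log2 intensity) was therefore taken from 1405 probe sets of olfactory and vomeronasal receptor genes, which monocytes are not known to use, as the 95th percentile of their means. Probe sets differ in how strongly they bind, so each gene is compared between treatments and with this level, and no gene's level is set against another's. Where the intensities of a marker list are summed, the brightest probe sets weigh most, so a sum does not describe each marker. Differences are mean log2 intensity with RA minus that with DMSO, with the moderated standard error (SE) of limma, a linear model that shares variance estimates across probe sets. A listed gene is said to have risen or fallen where its limma p was under 0.05 after Benjamini-Hochberg adjustment across the 39720 probe sets.

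Upstream sequence is shown for F13a1, the member that was lower with RA, and for Tgm1, the other enzyme well above the dim level in both treatments, since retinoic acid acts through receptors that bind DNA. The RefSeq table (build GRCm38.p6) held windows for 7 of the 8 members, 10 windows in all; Tgm2 was not matched. Each line gives the 250 bases before an annotated start, 5′ to 3′ on the gene's strand. Both genes have 2 annotated starts and lie on the minus strand. Capitals mark GAGGAA, a core bound by Ets family factors such as PU.1 (encoded by Spi1), in the first F13a1 window, and AGGTCA, the hexamer of retinoid receptor sites, read on the opposite strand in the first Tgm1 window. The second window of each gene held none of the 4 words searched.
F13a1, first start, chr13:37050245-37050494: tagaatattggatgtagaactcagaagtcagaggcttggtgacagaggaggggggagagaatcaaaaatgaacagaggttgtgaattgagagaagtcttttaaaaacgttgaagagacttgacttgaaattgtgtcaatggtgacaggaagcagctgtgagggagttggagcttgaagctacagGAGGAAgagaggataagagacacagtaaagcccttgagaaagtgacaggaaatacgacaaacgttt
F13a1, second start, chr13:37049214-37049463: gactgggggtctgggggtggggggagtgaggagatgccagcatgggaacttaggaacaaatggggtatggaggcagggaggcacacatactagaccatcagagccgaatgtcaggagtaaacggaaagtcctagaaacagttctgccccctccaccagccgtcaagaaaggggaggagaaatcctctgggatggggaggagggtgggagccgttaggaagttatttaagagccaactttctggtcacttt
Tgm1, first start, chr14:55713493-55713742: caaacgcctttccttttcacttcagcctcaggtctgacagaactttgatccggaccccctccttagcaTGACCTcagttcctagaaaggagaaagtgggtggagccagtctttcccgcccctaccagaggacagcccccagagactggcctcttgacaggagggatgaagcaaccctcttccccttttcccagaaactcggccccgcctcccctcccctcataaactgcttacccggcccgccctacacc
Tgm1, second start, chr14:55713089-55713338: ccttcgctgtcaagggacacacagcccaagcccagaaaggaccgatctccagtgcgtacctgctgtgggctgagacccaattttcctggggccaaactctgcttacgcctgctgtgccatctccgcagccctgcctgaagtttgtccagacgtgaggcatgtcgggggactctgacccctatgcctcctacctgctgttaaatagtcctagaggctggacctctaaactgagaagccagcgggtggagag

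AGGTCA and AGTTCA, the form with T at the third base, were searched on both strands, together with GAGGAA and the TATA box TATAAA. Neither retinoid receptor hexamer was in the F13a1 windows. AGGTCA was in 3 of the 10 member windows, against 14.0% of 32851 RefSeq windows of the same length, and AGTTCA was in 0 of 10, against 11.8%. The 3 windows belonged to Tgm1, Tgm3 and Tgm6, and the Tgm3 window held 2 copies. GAGGAA was in 4 of 10 member windows, against 23.3% of all windows. Only the first F13a1 start had it among the F13a1 windows, at bases -66 to -61. TATAAA stood 28 bases before the start of Tgm3 (-28 to -23) and 30 bases before that of Tgm4 (-30 to -25), against 12.4% of all windows with it anywhere. Such short words occur in many promoters, and a match is not a binding site.

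Tgm2 showed the largest difference of the 8 genes. Its intensity was 240.2 and 310.2 with DMSO and 1751 and 2131 with RA. Both RA arrays were far above both DMSO arrays, and replicate 2 was the higher of each pair. On the log2 scale the group means were 8.09 ± 0.26 with DMSO and 10.92 ± 0.20 with RA (SD, n = 2), a difference of 2.82 ± 0.17 (SE) or 7.08-fold. With DMSO, Tgm2 already lay 1.74 above the dim level, so this fold is not measured against background. In size the difference ranked 33rd of 39720 probe sets, a rank that follows from how the family was chosen.

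Tgm2 also had the widest replicate spread of the 8 members. Its DMSO arrays differed by 0.37 and its RA arrays by 0.28 (log2), and 92.3% and 84.4% of tested probe sets had a smaller gap. The gap between treatments was several times larger than either. Leaving out any 1 array moved the difference between 2.64 and 3.01.

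F13a1 went the other way. Its intensity was 313.0 and 284.7 with DMSO and 74.2 and 75.2 with RA, with no overlap between the treatments. The log2 means were 8.22 ± 0.10 with DMSO and 6.22 ± 0.01 with RA (SD, n = 2), a difference of -2.00 ± 0.09 (SE), which is 3.99-fold lower. With RA the gene lay at -0.13 relative to the dim level, just under it, so its true level there could be lower than measured. Set against the dim level, F13a1 was at least 3.65-fold lower with RA, and against the stricter 99th percentile of the receptor probe sets at least 1.85-fold lower. Its RA arrays differed by 0.02, and 9.17% of probe sets had a smaller gap. Leaving out any 1 array moved the difference between -2.07 and -1.93.

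Megakaryocytes and platelets also make F13a1, so their genes were read beside it. Of 9 measured markers, 0 passed the threshold in either direction, and 4 lay under the dim level in both treatments. The platelet chemokine Pf4 had intensities of 213.4 and 204.7 with DMSO and 185.0 and 154.9 with RA. The summed intensity of the 9 markers was 877 to 955 on the DMSO arrays and 845 to 921 on the RA arrays, and these ranges overlap. Over all genes, 1.28% were called higher with RA and 1.79% lower. Of 9 dendritic cell markers, 4 fell (Zbtb46, Ccr7, H2-Aa and H2-Ab1) 1 rose (Dpp4) and 4 did not pass, with a median difference of -0.42 (log2). Their summed intensity was 20788 to 21489 with DMSO and 10288 to 10381 with RA. Most of that step lay in the MHC class II chains H2-Aa and H2-Ab1: without them the sum was 6108 to 6318 with DMSO and 5013 to 5074 with RA. That remaining step lay mainly in Itgax, at 4573 and 4405 with DMSO and 3375 and 3316 with RA, which did not pass (limma adjusted p = 0.0948). Of the dimmer markers in this sum, Zbtb46, Flt3 and Ccr7 were lower on both RA arrays, Dpp4 and Batf3 higher, and Xcr1 overlapped. Of 8 macrophage markers, the complement genes C1qb and C1qc rose and 6 did not pass, and the sum was 3920 to 4177 with DMSO and 6899 to 7508 with RA. Of 9 monocyte markers, Spi1 fell and the other 8 did not pass. The sum was 28940 to 30908 with DMSO and 32442 to 33781 with RA. These markers moved both ways: 5 were higher on both RA arrays, among them Itgam, and 4 lower, among them Ly6c2, Ccr2 and Spi1. Of all probe sets, 20.7% were higher on both RA arrays and 23.3% lower. None of these 8 marker calls passed with any 1 array left out (limma adjusted p from 0.0584 to 0.256). Of 11 neutrophil markers, fitted on all 4 arrays, Cxcr2 fell 2.22-fold (limma adjusted p = 0.0167) and 9 did not pass. Retnlg rose (adjusted p = 0.0227) but was under the dim level in both treatments. The part of all these markers in the Tgm2 and F13a1 differences was not tested.

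Tgm1, the membrane-anchored transglutaminase of keratinocytes, was well above the dim level in both treatments. Its intensity was 322.7 and 354.9 with DMSO and 442.9 and 409.8 with RA. Both RA arrays were higher, but the step was small: from 8.40 ± 0.10 to 8.73 ± 0.08 (log2 intensity, SD, n = 2), a difference of 0.33 ± 0.09 (SE) or 1.26-fold. Without any 1 array it stayed between 0.26 and 0.40.

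Tgm5 and Tgm6 lay just above the dim level. Tgm5, an enzyme of the upper epidermis, had intensities of 124.3 and 113.0 with DMSO and 121.6 and 135.6 with RA. The treatments overlapped, and the difference was 0.12 ± 0.10 (log2, SE). Tgm6, the neuronal member, had 93.2 and 94.8 with DMSO and 89.3 and 90.8 with RA. The RA arrays were lower by -0.06 ± 0.08 (log2, SE), a step smaller than its error. Both genes fall under the 99th percentile of the receptor probe sets, 7.33, so a stricter level would count them as dim.

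The remaining members were dim in both treatments, and from such values a response can be neither read nor denied. Tgm3, which cross-links proteins of hair and epidermis, had intensities of 56.2 and 50.6 with DMSO and 55.6 and 63.0 with RA, a difference of 0.15 ± 0.11 (log2, SE). Tgm4, the prostate enzyme, was listed at the same intensity, 52.5, on DMSO replicate 1 and both RA arrays, and at 46.4 on DMSO replicate 2. Such a tie of exactly 3 arrays occurred in 0.040% of tested probe sets. F13b, the partner subunit of F13a1 in plasma, had 22.4 and 22.9 with DMSO and 21.6 and 21.7 with RA. Relative to the dim level it lay at -1.85 with DMSO and -1.91 with RA (log2).

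**Figure D1:**
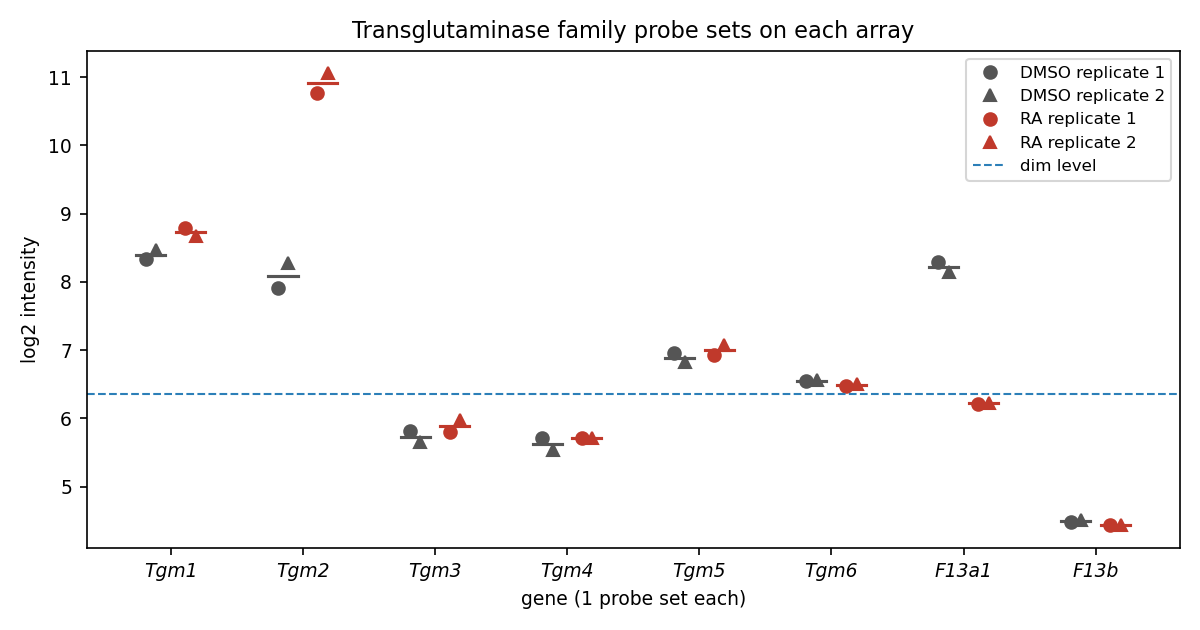
Log2 intensity of each member's probe set on the 4 arrays (circles replicate 1, triangles replicate 2; grey DMSO, red RA), with short bars at the group means and the dim level of 6.35 dashed. Tgm2 stands far higher on the RA arrays, F13a1 drops from 8.22 to 6.22, just under the dashed line, and the other members shift little; heights of different genes are not comparable.

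Read over the family, the RA arrays and the DMSO arrays did not overlap for 5 of the 8 members, against 44% of all probe sets. Of these, Tgm1 and Tgm2 were higher (20.7% of all probe sets) and Tgm6, F13a1 and F13b lower (23.3%). The family was chosen by this contrast, so nothing is read from these counts and no limma call is given for its members. Over all probe sets, limma called 0.904% higher and 1.19% lower. Outside Tgm1, Tgm2 and F13a1, every member differed by 0.15 or less on the log2 scale. A two-sided exact permutation test of 2 arrays against 2 could not give a p under 0.333.

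**Figure D2:**
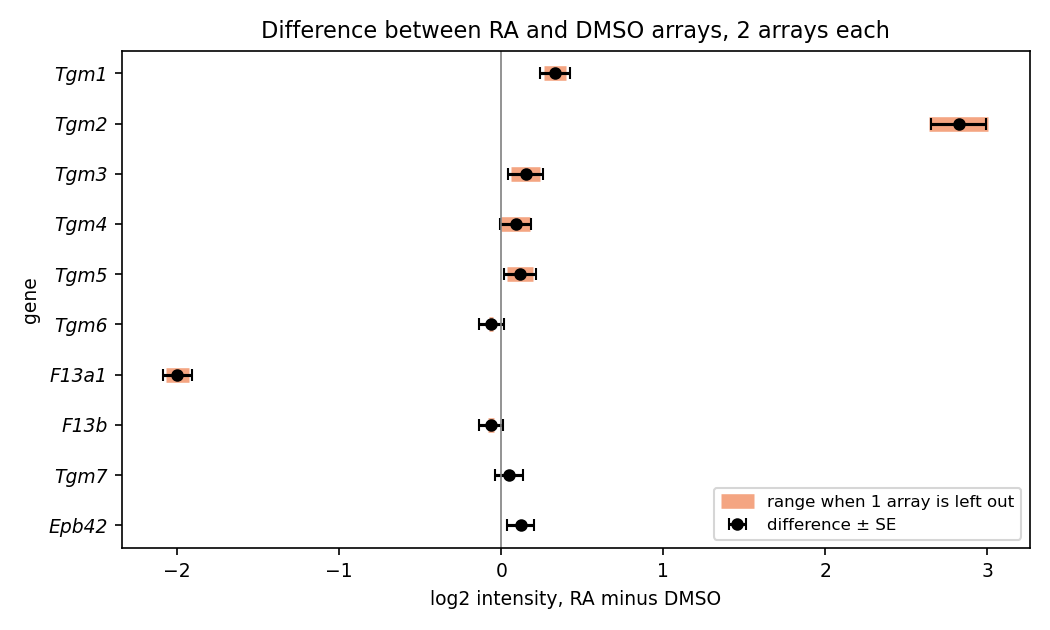
Difference in log2 intensity, RA minus DMSO, for the 8 members and the relatives Tgm7 and Epb42; points with bars are the difference ± SE, and shaded bars (members only) span the values obtained when 1 array is left out. Tgm2 at 2.82 and F13a1 at -2.00 lie far from 0 on opposite sides, Tgm1 lies at 0.33, and the rest cluster at 0.

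The closest relatives outside the chosen symbols were dim as well. Tgm7 had intensities of 70.7 and 64.6 with DMSO and 68.5 and 71.4 with RA. Epb42, an erythrocyte membrane protein that has the transglutaminase fold but no catalytic activity, had 59.0 and 62.2 with DMSO and 64.1 and 67.8 with RA. Their differences were 0.05 ± 0.09 and 0.12 ± 0.08 (log2, SE), and neither passed (limma adjusted p = 0.873 and 0.624). In RefSeq, Epb42, Tgm5 and Tgm7 are adjacent protein-coding genes on chromosome 2, and Tgm3 and Tgm6 have only AU015228 between them on the same chromosome. Tgm2 lies elsewhere on chromosome 2, F13a1 on chromosome 13, Tgm1 on 14, Tgm4 on 9 and F13b on 1.

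The genes next to Tgm2 did not pass the threshold. Rprd1b and Tti1 on one side differed by 0.12 ± 0.08 and 0.31 ± 0.08 (log2, SE; limma adjusted p = 0.638 and 0.174). D630003M21Rik and Bpi on the other side were under the dim level in both treatments. Beside F13a1, Ly86, which encodes the MD-1 partner of the receptor RP105, had intensities of 2096 and 2805 with DMSO and 5075 and 4716 with RA. This neighbour was higher where F13a1 was lower, by 1.01 ± 0.16 (log2, SE), but did not pass (limma adjusted p = 0.0665). Rreb1, a zinc finger factor next to Ly86, differed by -0.38 ± 0.09 (adjusted p = 0.164). Nrn1, on the other side, was dim, and Fars2 beyond it differed by 0.04 ± 0.14 (adjusted p = 0.943).

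Tgm2 works with a set of surface and matrix partners, and 25 genes were listed: fibronectin, integrins, syndecan 4, lipoprotein receptors, enzymes that set its redox state and matrix proteases that can cut it. Of the 25 measured, 4 rose, 1 fell and 20 did not pass, against 1.28% of all genes higher and 1.79% lower. Of the 25, 24 lay above the dim level in a treatment, while the shares over all genes include dim genes, so the backgrounds are not alike. The median difference was -0.06, and that of all genes 0.01 (log2). The list and its members were chosen with results of these data known.

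Fn1, which encodes fibronectin, the matrix protein that Tgm2 binds, had intensities of 3564 and 4468 with DMSO and 8046 and 9026 with RA. It rose 2.14-fold (log2 difference 1.09 ± 0.14, SE; limma adjusted p = 0.0400). Itgb5, the integrin chain that pairs with the αv chain in an uptake receptor for dead cells, had 110.2 and 134.5 with DMSO and 351.7 and 413.0 with RA. It rose 3.13-fold (1.65 ± 0.14; adjusted p = 0.0156), although on DMSO replicate 1 it was close to the dim level. Itga4, the α4 chain of a fibronectin receptor, had 938.6 and 983.6 with DMSO and 2169 and 2115 with RA, and rose 2.23-fold (1.16 ± 0.08; adjusted p = 0.00922). In these genes, named because they passed, every RA array was above every DMSO array, as in 20.7% of all probe sets. Mmp9, a gelatinase, rose 2.01-fold, from 194.8 and 202.9 to 352.4 and 453.7 (1.01 ± 0.14; adjusted p = 0.0494).

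Sdc4 moved against them. It encodes syndecan 4, a heparan sulphate proteoglycan that binds Tgm2 at the cell surface, and had intensities of 2803 and 2871 with DMSO and 690.2 and 784.9 with RA. It fell 3.85-fold (-1.95 ± 0.10, log2, SE; limma adjusted p = 0.00488). The integrin chains Itgb1 and Itgb3, the latter a partner of Tgm2 in dead cell uptake, differed by 0.07 ± 0.08 and 0.41 ± 0.11 and did not pass (adjusted p = 0.765 and 0.225). Itgav, the αv chain shared with Itgb5 and Itgb3, differed by -0.09 ± 0.08 (adjusted p = 0.695), and its dimmer second probe set by -0.01 ± 0.08. The bridging protein gene Mfge8 was lower on both RA arrays, at 520.1 and 533.3 against 1155 and 737.5, but its DMSO arrays were far apart and it did not pass (-0.81 ± 0.22; adjusted p = 0.221). Thioredoxin (Txn1) and the disulphide isomerase Pdia3, which reduce and oxidise Tgm2, differed by 0.03 ± 0.13 and -0.10 ± 0.08, and neither passed.

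Factor XIII acts at the end of coagulation, and 24 of 27 listed genes of the fibrin clot and its lysis were measured. Of these, 1 rose, 3 fell and 20 did not pass, against 1.28% of all genes higher and 1.79% lower. The median difference was -0.01 (log2), and that of all genes 0.01. The 3 fibrinogen chain genes Fga, Fgb and Fgg, the substrate of factor XIII, and the prothrombin gene F2 were under the dim level in both treatments. Plau, the urokinase plasminogen activator, had intensities of 3684 and 3832 with DMSO and 1997 and 2039 with RA, and fell 1.86-fold (-0.90 ± 0.08, log2, SE; limma adjusted p = 0.0159). Its receptor gene Plaur had 2718 and 2468 with DMSO and 1504 and 1405 with RA, and fell 1.78-fold (-0.83 ± 0.09; adjusted p = 0.0283). Thbs1, thrombospondin 1, a matrix protein of platelets and macrophages, went from 497.9 and 499.0 to 154.8 and 223.5 and fell 2.68-fold (-1.42 ± 0.19; adjusted p = 0.0424). Fn1, which factor XIII also cross-links to fibrin, was the member that rose. Tissue factor, F3, was lower on both RA arrays but under the dim level there (-0.47 ± 0.18; adjusted p = 0.379). Itgam, a chain of the fibrinogen receptor Mac-1, differed by 0.66 ± 0.12 (adjusted p = 0.0893), and its partner chain Itgb2 by -0.26 ± 0.08 (adjusted p = 0.248).

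These calls rest on all 4 arrays. With any 1 array left out, none of Fn1, Itgb5, Itga4, Mmp9, Plau, Plaur and Thbs1 passed; Sdc4 passed without RA replicate 2 (limma adjusted p = 0.0443) and not without DMSO replicate 1, DMSO replicate 2 or RA replicate 1 (0.0581 to 0.0658). None of the 8 passed with the constant probe sets kept in the fit (0.0625 to 0.174), and Mmp9 and Thbs1 did not pass when the arrays were quantile normalized again (0.0576 and 0.0506).

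**Figure D3:**
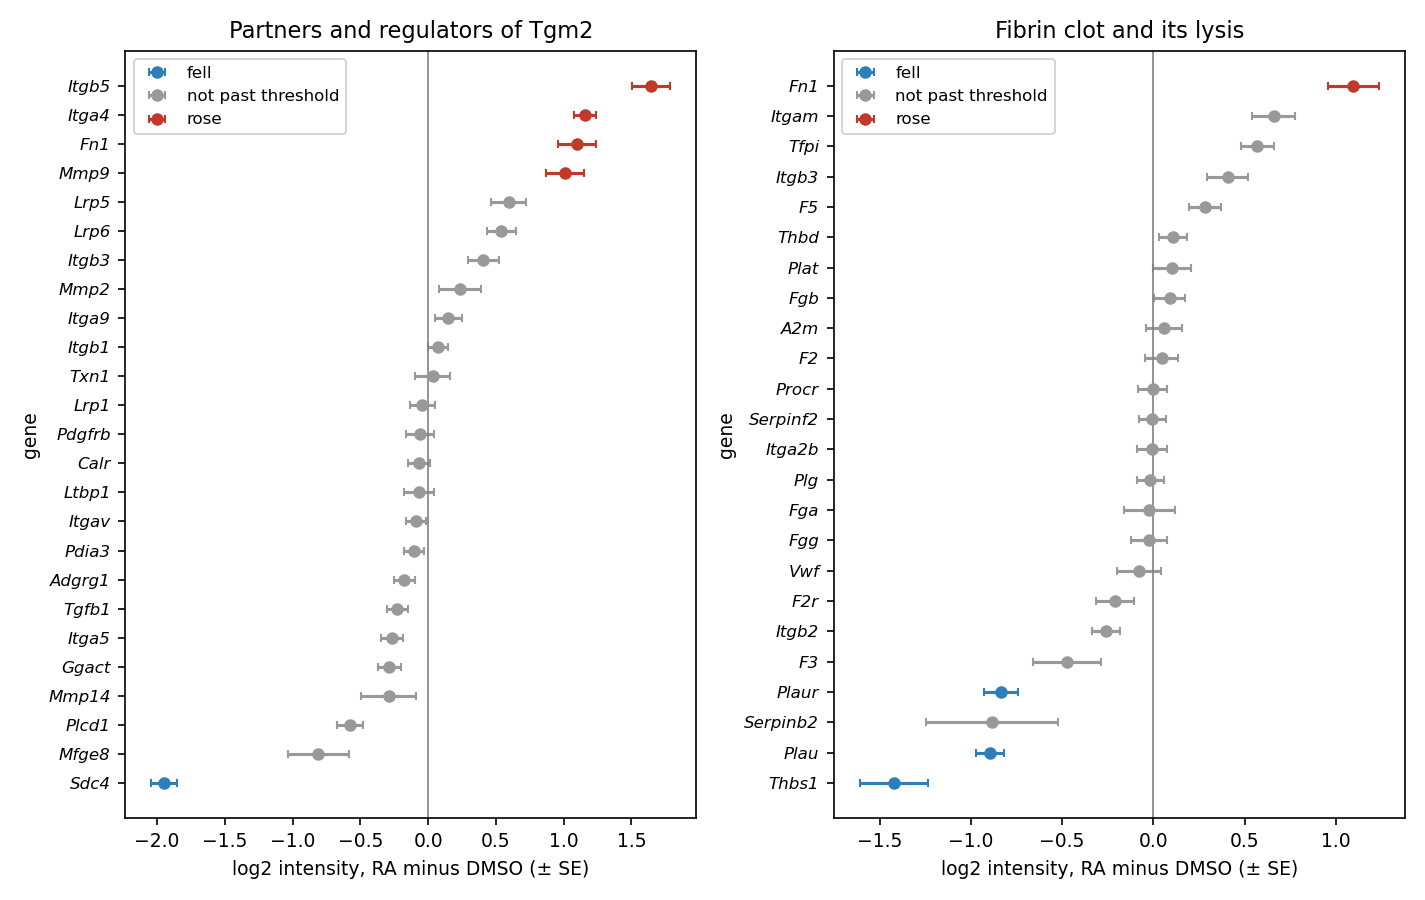
Difference in log2 intensity, RA minus DMSO (± SE), for the listed partners and regulators of Tgm2 (left) and the genes of the fibrin clot and its lysis (right); red rose, blue fell and grey did not pass at a limma adjusted p under 0.05. Itgb5 at 1.65 and Sdc4 at -1.95 lie at the ends of the left panel, and Fn1 at 1.09 and Thbs1 at -1.42 at those of the right.

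Of 26 measured genes of the cornified envelope, the skin structure that Tgm1, Tgm3 and Tgm5 build, 18 were under the dim level in both treatments, among them the substrates Ivl (involucrin) and Flg (filaggrin). None rose, 2 fell and 24 did not pass, against 1.28% of all genes higher and 1.79% lower. The genes that fell, S100a10 and S100a11, are calcium-binding proteins that monocytes also make. S100a10 fell 1.97-fold (-0.98 ± 0.09, log2, SE; limma adjusted p = 0.0191), and S100a11 fell 1.72-fold (-0.78 ± 0.09; adjusted p = 0.0294). Neither passed with any 1 array left out (adjusted p from 0.108 to 0.200). Of 7 keratinocyte markers, 5 were under the dim level in both treatments and 0 passed. Krt10 lay just above that level, and Sfn well above it, at log2 means of 8.56 with DMSO and 8.52 with RA. The Tgm1 probe set lay 2.05 above the level with DMSO.

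Since Tgm2 and F13a1 both serve as markers of the interleukin 4 response, 25 other genes of that response were counted. Arg1 rose, Alox15, Cdh1 and Irf4 fell and 21 did not pass, against 1.28% of all genes higher and 1.79% lower. Of the 25, 24 lay above the dim level in a treatment, while the shares over all genes include dim genes. The median difference was -0.23 (log2), and that of all genes 0.01. Irf4 did not pass with any 1 array left out (limma adjusted p from 0.146 to 0.181). Arg1 passed only without DMSO replicate 2, Alox15 only without DMSO replicate 1 or 2, and Cdh1 only without RA replicate 1 or 2. Cd209a was counted by its probe set with the higher mean (0.05 ± 0.09, SE; limma adjusted p = 0.875), while its other probe set fell (-4.12 ± 0.09; adjusted p = 0.00172). Of 13 listed retinoic acid targets other than Tgm2, 10 were measured. Among those 10, 7 rose, 0 fell and 3 did not pass (Stra6, Crabp2 and Ncoa7), against 1.28% of all genes higher and 1.79% lower. The median difference was 1.87, and that of all genes 0.01. Of the 10, 9 lay above the dim level in a treatment, while the shares over all genes include dim genes. This list too was drawn up with results of these data known. Nrip1, a corepressor of nuclear receptors, was among those that rose (2.08 ± 0.09, 4.24-fold; adjusted p = 0.00424). With any 1 array left out, between 1 and 4 of these 10 passed, the fewest without RA replicate 1.

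The genes whose 4 values, centred on their own mean, lay nearest to those of Tgm2 were Gbp9, Dhrs3, Rab20, Smpdl3a and Cxcl14. Their distances (Euclidean, log2, over 4 arrays) ran from 0.23 for Gbp9 to 0.40 for Cxcl14, out of 22179 genes compared. Gbp9, a guanylate binding protein, had intensities of 91.6 and 108.9 with DMSO and 610.5 and 651.0 with RA. Dhrs3, which reduces retinaldehyde, had 233.1 and 323.8 with DMSO and 1730 and 1734 with RA. Like Tgm2, both were higher on DMSO replicate 2 than on replicate 1. Their differences were 2.66 ± 0.11 and 2.66 ± 0.17 (log2, SE).

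For F13a1 the distances rest on RA values under the dim level, so they describe the measured values and their order is not read. Havcr2, which encodes the inhibitory receptor TIM-3, lay at a distance of 0.063, then H2-Eb1, an MHC class II chain, at 0.10, Myo1e, an unconventional myosin, at 0.14, Hcar2, the niacin receptor, at 0.17 and Sdc4 at 0.18. Havcr2 had intensities of 1148 and 1006 with DMSO and 266.8 and 259.9 with RA, a difference of -2.03 ± 0.10 (log2, SE). Unlike F13a1, all 5 stayed above the dim level with RA. With 2 treatments and 4 arrays, likeness reflects mainly the size and direction of the difference.

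**Figure D4:**
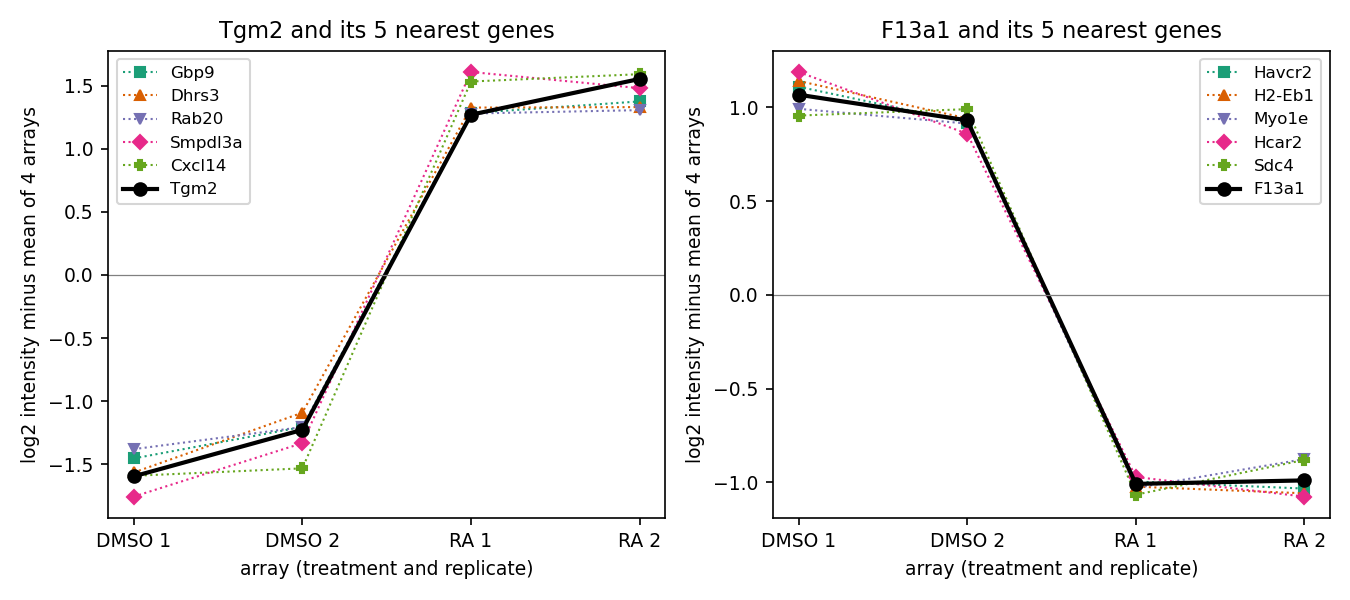
Log2 intensity minus the mean of the 4 arrays for Tgm2 (left) and F13a1 (right), as black lines, and for the 5 genes with the nearest values, as dotted lines, by array. Tgm2 and its nearest genes step up between the DMSO and RA arrays, F13a1 and its nearest genes step down.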

How the data were processed

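Per the submitters' processing notes, the authors made the deposited intensity values with Affymetrix Expression Console and RMA, which corrects background, equalises array distributions and summarises probes to probe sets; versions and the genome build are not given in the sources used here. RNA (250 ng) was labelled with the WT PLUS kit, per the labels' protocols. The deposited intensities are linear and were transformed to log2 here, with no further normalization; RMA understates differences of dim genes. The number of arrays limits the precision.

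Of 41345 probe sets, 1625 held the same value on all 4 arrays and were left out. The fit was limma 3.58.1 in R 4.3.3 (lmFit, eBayes, no covariates, two-sided) over 39720 probe sets, with Benjamini-Hochberg adjustment and a threshold of 0.05. It was tested on data simulated from its own variance model, which cannot show whether these arrays follow that model. A listed gene was read from its 1-symbol probe set with the highest mean (22180 genes); 1814 probe sets with several symbols and 16010 unnamed here were not used for naming. Named were all members, the listed genes past the threshold with some that were not, the 2 nearest protein-coding genes on each side of Tgm2 and F13a1 (RefSeq, GRCm38.p6), and the 5 genes of most similar pattern to each. The members, the gene lists and the choice to leave out constant probe sets were made with earlier results of these data known. Alternatives covered probe set filters, normalization, a variance trend, a replicate block and leaving out each array.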

Additional observations from a re-analysis of the deposited data

How the results depend on the processing

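Leaving out 1 array gave differences of 2.64 to 3.01 for Tgm2 and -2.07 to -1.93 for F13a1 (log2), a range set by the gap within each pair of arrays; no member had a second probe set. Calls across all probe sets depended on the fit, as 359 higher and 472 lower in the fit used. Keeping the constant probe sets gave 0 and 0 (limma, smallest adjusted p = 0.0535, 6260 at an unadjusted p under 0.05). Testing only probe sets with 1 symbol gave 757 and 879, and testing only those brighter than the median gave 545 and 671. Leaving out 1 array gave between 12 and 30 higher and between 13 and 25 lower.

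Over the 5 gene lists, 12 genes rose and 9 fell. With constant probe sets kept, 0 and 0 were called; with 1-symbol probe sets 15 fell and with those brighter than the median 14 fell; leaving out 1 array left 1 to 4 that rose and 1 to 2 that fell. None of the 33 called genes on the lists, cell type markers included, changed sign, but almost no alternative could have changed it. Filters, the variance trend and the blocks leave each difference as it is. Leaving out 1 array cannot reverse groups that do not overlap. Only the repeated quantile normalization could have changed a sign.

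Same-numbered arrays tended to deviate in opposite directions (correlation -0.25 across probe sets). With 2 arrays per treatment this cannot show whether the numbers pair the samples, and the labels do not say. With the replicate number as a block, 73 probe sets were higher and 88 lower, and 7 listed genes rose and 3 fell. With the numbers crossed, an alternative chosen after seeing the data, the counts were 194 and 263, and 8 listed genes rose and 5 fell.

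The dim level was 5.80 at the 90th percentile, where F13a1 with RA lay above it, and 7.33 at the 99th, where the bound on the F13a1 difference was 1.85-fold in place of 3.65-fold. These arrays cannot resolve changes of dim genes such as Tgm3, Tgm4 and F13b.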
